A study of Mus musculus with 12 samples.

Results

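The Sonic hedgehog pathway was followed through 7 genes, Shh, Ptch1, Smo, Gli1, Gli2, Gli3 and Hhip, in whole back skin of mice during topical treatment for hair growth. The genes were picked by name: every array probe whose annotated gene symbol was one of these was taken, which gave 13 probes out of 41174 and 7 gene names out of 27373. The mice were male C57BL/6J animals of 8 weeks with shaved backs, and the labels give no genetic change. They received 200 µL per day of 3% MXD (minoxidil, the positive control), of 10% N-CE (a cell extract of the cactus Notocactus ottonis made by cold vacuum extraction) or of VC (the vehicle control of propylene glycol, ethanol and water). Skin was taken at 1W, 2W and 3W, the weeks of treatment. RNA of 6 mice was pooled for each group and week, so every group is 1 pool without a biological replicate, and the spread between mice is unknown. Each treated pool was hybridized against the VC pool of its week on 2 two-colour arrays with exchanged Cy3 and Cy5 dyes, which gives 12 arrays and 6 comparisons. Array 1 of a comparison has the treated pool in Cy5 and array 2 has it in Cy3. MXD and N-CE of the same week share the VC pool and the slide, and slide and week cannot be told apart.

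Hedgehog signaling starts with a secreted ligand, of which Shh is the family member used in skin epithelium. Without ligand, the receptor Ptch1 holds the membrane protein Smo inactive. Ligand bound to Ptch1 frees Smo, which acts through the primary cilium on the transcription factors Gli2 and Gli3, and these switch on targets that include Gli1, Ptch1 and Hhip. Ptch1 and Hhip bind the ligand themselves and so limit the signal. In the hair follicle, Shh is made in the epithelium of the growing bulb and is needed for the follicle to grow down during anagen, the growth phase, while the dermal papilla beneath responds to it.

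The probes are 60 bases long, and the first 30 bases of those on which the results turn are printed here in lower case, 5′ to 3′, as the array files give them. The chromosome positions are those of the files, on the mouse build mm9. The gene models of that build were not used here, so exon or UTR is not stated.
Shh (mm9 chr5:28783983-28784042, minus strand): aatttattattgtgtgaactgtactcacag
Ptch1, brightest probe (mm9 chr13:63610298-63610357, minus strand): catttggatgttttaatttgtaaaagaaaa
Ptch1, second probe (mm9 chr13:63612907-63612966, minus strand): ggggtatttgaggatcctcatgtgcctttt
Gli1 (mm9 chr10:126767991-126768050, minus strand): ccgggtgctgcctatagccagtgtcctcga
Gli2 (mm9 chr1:120731255-120731314, minus strand): aggcattgattcttggactttgaggaactc
Gli3 (mm9 chr13:15821502-15821561, plus strand): tgttctcctctgacaagttacgcttgtata
Hhip, second probe (mm9 chr8:82496214-82496273, minus strand): atgacgtcttacttgctggatctcacaagt
The probes of Shh and Gli1 and the second probe of Ptch1 were printed 10 times on each array, which gives a measure of spot error that the single-copy probes lack. Gli3 also had a probe printed 10 times, but neither pool of any comparison exceeded background there, and it says nothing about the gene. For 11 of the 13 probes the accession was in the RefSeq table, and all 11 carried the same symbol there. Where a gene had several probes, the brightest over all 24 channels stands for the gene unless another is named.

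Between 57.0% and 69.6% of transcript spots were well above background in a channel, and no spot was saturated. The deposited value is a log ratio after background subtraction and dye normalization. Its sign was set so that positive means higher in the treated pool, it was put on the log2 scale, and the mean was taken first over a probe's spots, then over both dye orientations. Every SD of a fold is over these 2 arrays, so it describes the measurement and not the mice. A probe is called up-regulated or down-regulated if its mean fold was above 1.5 or below 0.75 and the scanner software's error model gave P under 0.01 on each array, with equal sign. The correlation of the 2 arrays over probes above background was between 0.26 and 0.71 in 5 comparisons and −0.17 in N-CE at 2W, across probes, which are not replicates. The median fold of all probes was 1 in all 6 comparisons, which follows from the processing, since dye normalization centres the ratios.

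The hedgehog genes moved in opposite directions under the 2 treatments, at different weeks. In MXD at 2W, 6 of the 13 member probes were up-regulated and none was down-regulated. They belong to Shh, Ptch1 (both probes), Gli2, Gli3 and Hhip. In N-CE at 1W, 4 of the 13 were down-regulated and none was up-regulated. They belong to Shh, Gli1, Gli2 and Hhip. No member probe was called in the other 4 comparisons.

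These counts are to be read against all probes. In MXD at 2W, 4.04% of all probes tested were up-regulated and 5.82% down-regulated, against 46.2% and 0% of the member probes. For N-CE at 1W, 1.49% were down-regulated and 0.292% up-regulated, against 30.8% and 0% of the member probes. The members' share lay above that of all probes in both. For the comparisons without a member call, the share of all probes up- and down-regulated was 0.685% and 0.765% in MXD at 1W, 0.144% and 0.161% in MXD at 3W, 0.0682% and 0.0511% in N-CE at 2W, and 0.151% and 0.139% in N-CE at 3W. The probes of a gene share their target, so the 13 are not 13 separate measurements.

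Over the 7 genes, each by its brightest probe, the median log2 fold for MXD was 0.24 in the first week, 0.80 in the second and 0.30 in the third. The medians for N-CE were −0.95, 0.22 and 0.33 in the same order. All 7 lay above 0 in MXD at 2W and in N-CE at 3W, and all 7 below 0 in N-CE at 1W. The median over all probes was 0 in each comparison. Dye normalization centres the ratios and spots at background can carry a ratio of 0, so that median is no observed reference for these signs. In whole skin, fewer cells of a type and less RNA per cell cannot be told apart.

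**Figure D1:**
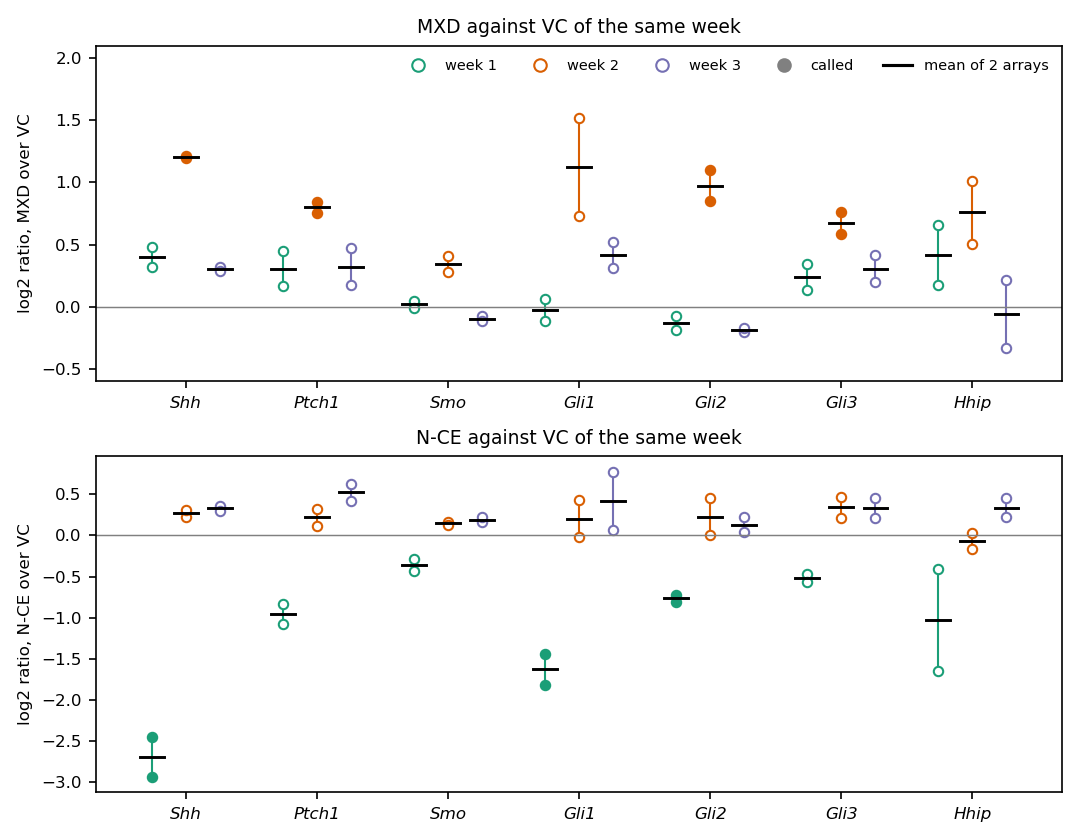
Log2 ratio of treated over VC for the brightest probe of each of the 7 genes, with MXD above and N-CE below; the circles are the 2 arrays of a dye swap, the bars their mean, the colours the weeks, and lines join the 2 arrays; filled circles mark called probes. In MXD the means of week 2 lie highest for all 7 genes, up to 1.20 for Shh, and in N-CE the points of week 1 lie below 0 for all 7, down to −2.94 for Shh on array 2.

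Shh, the ligand, rose in MXD at 2W and fell in N-CE at 1W. In MXD at 2W its processed signal was 460 and 376 in the treated pool against 201 and 162 in VC, on arrays 1 and 2. All 10 spots of both arrays were higher in the treated pool, from 1.07 to 1.44 on the log2 scale. The log2 fold was 1.20 ± 0.014 (SD over 2 arrays), the error-model P was 5.09e-07 and 5.72e-07, and both pools were above background throughout.

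The signal of Shh in N-CE at 1W was 27.0 and 17.0 in the treated pool against 145 and 122 in VC. All 10 spots of array 1 and all 9 usable spots of array 2 were lower in the treated pool. The treated pool was well above background at 4 of 10 spots on array 1 and at 0 of 9 on array 2. The deposited log2 fold of −2.70 ± 0.34 (SD over 2 arrays) therefore rests on a signal near background. On the level scale used below, after normexp and loess, Shh was 1.79-fold lower in N-CE than in VC, and with the treated pool near background neither size is firm.

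In the remaining weeks Shh was above VC by amounts that did not pass the thresholds. Under MXD, the log2 ratios were 0.32 and 0.48 at 1W, and 0.32 and 0.29 at 3W. Under N-CE they were 0.23 and 0.31 at 2W, and 0.35 and 0.30 at 3W. All 8 values are positive, and their folds are under 1.5. The spots of single arrays had an SD of 0.060 to 0.12 in these comparisons, and 79 of their 80 spots lay above 0.

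Ptch1, the receptor that is also a target of the pathway, was up-regulated in MXD at 2W by both probes. The brightest probe gave 0.84 and 0.76 on the 2 arrays, a log2 fold of 0.80 ± 0.062 (SD over 2 arrays) with P of 0.000129 and 0.000618. The second probe gave 2.05 and 0.97, a log2 fold of 1.51 ± 0.76. Each spot of the second probe was higher in the treated pool, 9 on each array, and the ranges of its spots on the 2 arrays, 1.78 to 2.37 and 0.74 to 1.26, did not overlap. The size of the rise thus differs between the arrays by more than the spot error, while its direction does not.

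Under N-CE at 1W, Ptch1 was below VC without being called. The brightest probe gave −0.83 and −1.07, a log2 fold of −0.95 ± 0.17 with P of 0.0139 and 0.00931, so the first array missed the threshold. The treated pool was above background on 1 of 2 arrays. The second probe gave −0.72 and −1.73 with all 10 spots lower on each array, and its first array also missed the threshold on P, with 0.0197.

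In N-CE at 2W the second probe of Ptch1 gave 0.95 on array 1 and −0.23 on array 2, opposite signs in all 10 spots of each. Its VC signal was 55.5 on array 1 and 113 on array 2 of that comparison. Over the 6 comparisons array 1 gave the higher ratio for this probe in 5, and array and dye orientation cannot be told apart. In N-CE at 3W it gave 0.51 and 0.69, and the brightest probe 0.62 and 0.42, none of which was called. The brightest probe was between 0.12 and 0.47 in MXD at 1W and 3W and in N-CE at 2W.

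Smo, the transducer between receptor and Gli factors, was called in no comparison. Its brightest probe had a processed signal of 5612 to 9729 in the 12 VC channels. The log2 ratio was 0.28 and 0.41 in MXD at 2W, and −0.29 and −0.43 in N-CE at 1W. Both changes have the direction of the other members and stay under the fold thresholds. In the 4 other comparisons the values lay between −0.12 and 0.22. The 2 dimmer probes of Smo were mostly or always at background and were called nowhere.

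Gli1, a factor that is itself switched on by the pathway and is often read as its activity, was down-regulated in N-CE at 1W. Its signal was 18.0 and 16.5 against 48.5 and 53.5 in VC, and all 10 and all 9 usable spots were lower in the treated pool. The log2 ratio was −1.44 and −1.82, with P of 0.000567 and 4.54e-05. The treated pool was above background at no spot of either array. After normexp and loess Gli1 was 1.22-fold lower in N-CE, and neither size is firm.

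In MXD at 2W Gli1 was higher in all 9 and all 10 usable spots, but it was not called. The log2 ratio was 1.52 on array 1 and 0.73 on array 2, a log2 fold of 1.12 ± 0.56 with P of 4.41e-07 and 0.0128. At 3W it was 0.31 and 0.52 in MXD, and 0.061 and 0.77 in N-CE. In MXD at 1W it was 0.066 and −0.11, and in N-CE at 2W 0.43 and −0.021. At these weeks the 2 arrays differed by more than the distance of their mean from 0 in 3 of the 4 comparisons, the exception being MXD at 3W. The VC signal of Gli1 was 45.2 to 71.7 over all 12 channels, close to background, which limits what the array can show for this gene.

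Gli2, the main activating factor, was called in both directions, with both pools above background on all arrays. In MXD at 2W its signal was 716 and 495 against 334 and 275 in VC, a log2 fold of 0.97 ± 0.18 with P of 1.55e-06 and 0.000130. In N-CE at 1W it was 145 and 151 against 253 and 249, a log2 fold of −0.76 ± 0.059 with P of 0.000309 and 0.00109. This is the only member call in N-CE at 1W for which both pools were measurable. In MXD at 1W and 3W Gli2 was slightly below VC on each array, from −0.20 to −0.077, and in N-CE at 2W and 3W it lay between 0.0031 and 0.46. The second Gli2 probe, at or near background, gave a positive ratio on array 1 and a negative one on array 2 in all 6 comparisons, and its mean carries no direction.

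Gli3, which acts mostly as a repressor in the absence of ligand, was up-regulated in MXD at 2W. The signal was 3794 and 2937 against 2233 and 1955 in VC, a log2 fold of 0.68 ± 0.13 with P of 0.000393 and 0.00541. In N-CE at 1W it was 1104 and 1149 against 1533 and 1699, a log2 fold of −0.52 ± 0.064, with P of 0.0234 on array 1, and so not called. In the other comparisons Gli3 was above VC on each array, from 0.14 to 0.47. It was above background in all channels.

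Hhip, the decoy that binds the ligand, has 2 probes, both dim. Its brightest probe gave 0.51 and 1.01 in MXD at 2W and −1.65 and −0.41 in N-CE at 1W, and was called in neither. The second probe was called in both. It was up-regulated in MXD at 2W, with 114 and 81.7 against 40.4 and 37.6 in VC, a log2 fold of 1.31 ± 0.26, where VC exceeded background on 1 of 2 arrays. It was down-regulated in N-CE at 1W, with 14.2 and 17.9 against 45.8 and 72.7, where the treated pool was not above background on either array. The fall was 1.43-fold after normexp and loess, and this size is not firm. The probes of Hhip thus have the same direction in these comparisons and differ in the call.

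**Figure D2:**
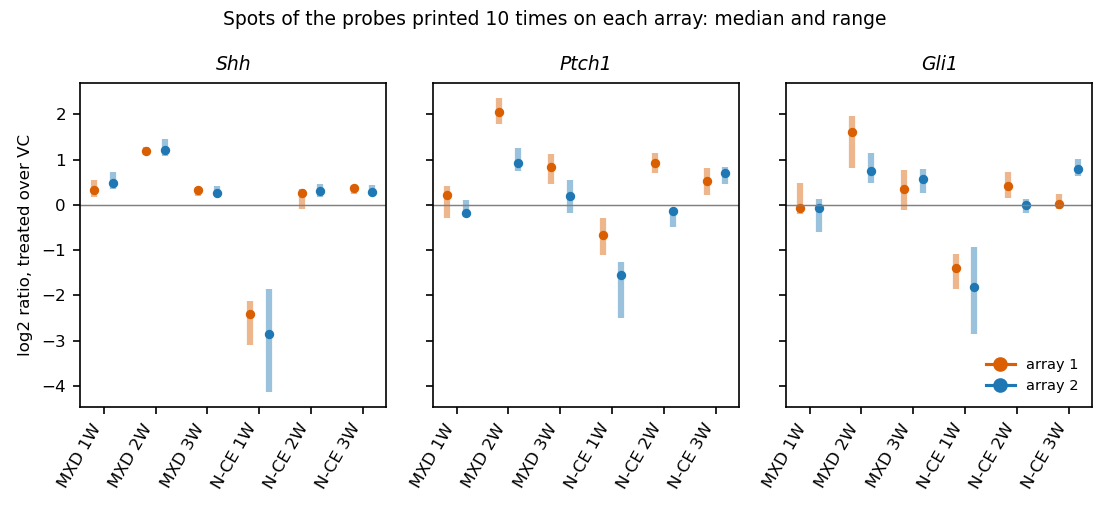
Log2 ratio of treated over VC over the spots of the probes of Shh, Ptch1 (second probe) and Gli1 that were printed 10 times, by comparison; dots are the median, bars the range over the usable spots, and the colours the 2 arrays of a dye swap. For Shh the arrays overlap in each comparison, while for Ptch1 in MXD at 2W the spots of array 1 (1.78 to 2.37) lie above those of array 2 (0.74 to 1.26).

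The size of these folds depends on how background is handled. The normexp correction used here adds an offset of 50 to both channels, which draws the ratio of a dim probe toward 1. With normexp background correction (offset 50) and loess on the raw intensities, the log2 fold of Shh became 0.74 in MXD at 2W and −0.84 in N-CE at 1W. Gli1 became 0.39 and −0.29, and Hhip by its brightest probe 0.20 and −0.21. The bright probes moved little: Gli3 became 0.58 and −0.52, and Smo 0.32 and −0.39. With these folds, the members called in MXD at 2W were 3 probes (Shh, the second probe of Ptch1, and Gli2) and in N-CE at 1W also 3 (Shh, Gli2 and the second probe of Hhip). No called value changed its sign.

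**Figure D3:**
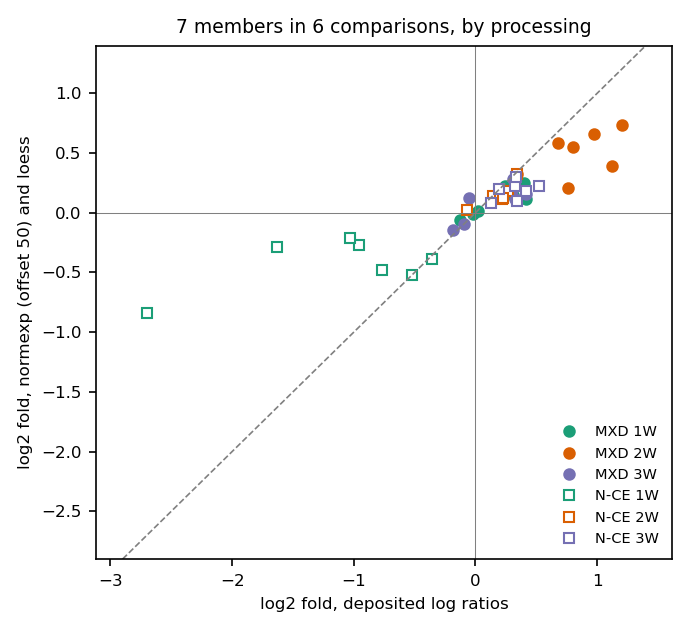
Log2 fold of the 7 members by their brightest probe in 6 comparisons, from the deposited log ratios (horizontal) and after normexp and loess (vertical); each point is 1 gene in 1 comparison, the dashed line marks equal values. Points far from 0 lie closer to 0 on the vertical axis, the farthest being Shh in N-CE at 1W, with −2.70 against −0.84.

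Levels by group and week were compared within a probe only, since signals of different probes have no common scale. They are log2 signals of single channels after normexp, loess and Aquantile scaling, which gives all arrays 1 distribution of average brightness. The same VC pool was measured on the MXD and on the N-CE arrays of a week, which gives a technical reference. Its 2 estimates differed by 0.0017 to 0.43 on the log2 level scale over the 7 genes and 3 weeks, with a median of 0.070.

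The level of Shh was highest in N-CE at 3W, 7.96 ± 0.032, and in MXD at 2W, 7.92 ± 0.064, and these 2 overlapped. MXD at 3W followed with 7.70, VC at 3W with 7.62, MXD at 1W with 7.55, N-CE at 2W with 7.42, VC at 1W with 7.30 and VC at 2W with 7.21. N-CE at 1W was lowest with 6.46 ± 0.087, and no channel of it overlapped VC at 2W above it. Of the 8 pairs of neighbours in this order, 5 overlapped. Of the 3 VC levels, that of 3W was the highest, and the high level in N-CE at 3W stands beside the highest VC level.

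N-CE at 1W was the lowest of the 9 groups for Shh, Ptch1, Smo, Gli1 and Gli3. For Gli2 it overlapped the lowest, N-CE at 2W, and for Hhip it overlapped the lowest, VC at 2W. On the other level scale, processed signal over the 75th percentile of its channel, N-CE at 1W was lowest for all 7. MXD at 2W was highest for Ptch1, with 8.13 against 7.46 in VC, and for Gli2, with 8.46 against 7.59. These VC levels average estimates that differ between arrays. The MXD arrays alone put VC at 7.585 for Ptch1 and 7.81 for Gli2, the N-CE arrays at 7.34 and 7.38. Against the VC of its own arrays, MXD was thus less far above than against the average. MXD at 2W was second for Gli3, with 10.43 against 9.83 in VC, where N-CE at 3W stood at 10.44 and overlapped it. For Gli1 the 3 highest groups, N-CE at 3W, MXD at 3W and MXD at 2W, lay within 6.87 and 6.92 and overlapped. For Smo, 7 of 8 neighbouring pairs overlapped, and only N-CE at 1W stood apart, with 11.63 against 11.94 in the next group. Hhip was highest in MXD at 1W, with 7.07, a week in which the MXD arrays put its VC level 0.35 above the N-CE arrays.

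**Figure D4:**
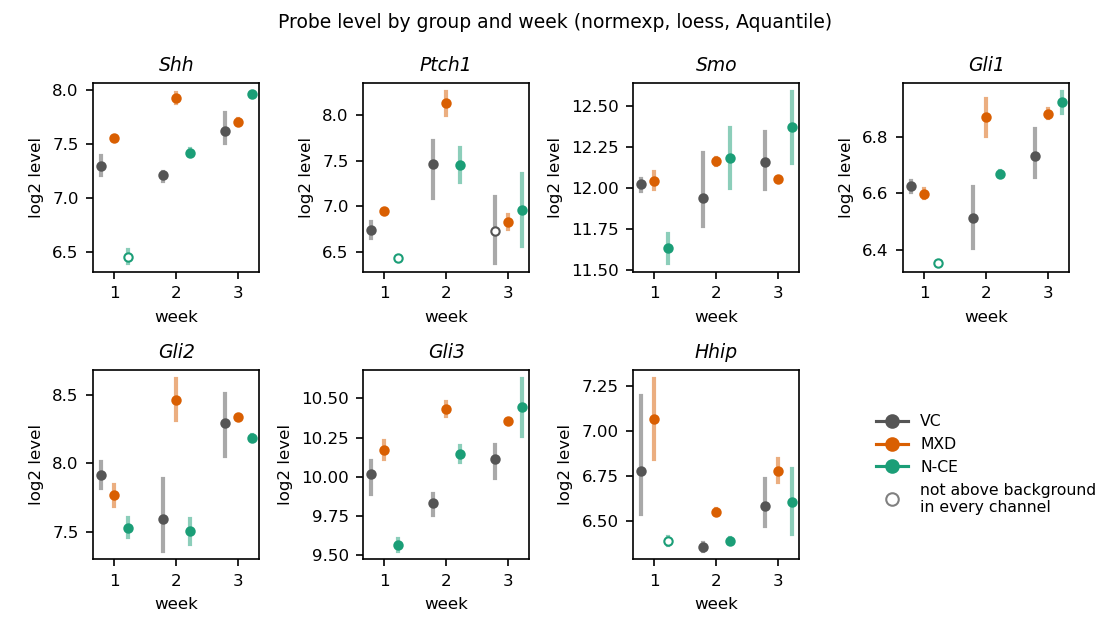
Log2 level of the brightest probe of each gene by week, for VC (4 channels), MXD and N-CE (2 channels each); dots are means, bars the range over channels, and open dots mark groups not above background in every channel. The axes differ between panels and do not start at 0; N-CE at 1W lies lowest for 5 of the 7 genes, and Shh rises from 7.21 in VC to 7.92 in MXD at 2W.

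Both treatments of a week were set against the same VC pool, which cancels when they are compared with each other. Its measurement does not cancel, since each treatment has its own arrays. At 1W, MXD was above N-CE in all 7 members. The difference of the log2 folds was 3.098 for Shh, 1.61 for Gli1, 1.44 for Hhip, 1.26 for Ptch1, 0.76 for Gli3, 0.63 for Gli2 and 0.38 for Smo. The treated N-CE pool was not above background on either array for Shh, Gli1 and Hhip, and on 1 of 2 for Ptch1. After normexp and loess the differences were 1.09 for Shh, 0.74 for Gli3, 0.42 for Ptch1, 0.41 for Gli2, 0.40 for Smo, 0.33 for Hhip and 0.27 for Gli1, so that both their size and their order depend on the processing. At 2W it was again above 0 in all 7, from 0.20 for Smo to 0.93 for Shh. At 3W it was below 0 in all 7, from −0.39 for Hhip to −0.0020 for Gli1, and after normexp and loess in 6 of 7. The VC level of Gli2 at 3W was 8.48 on the MXD and 8.10 on the N-CE arrays. By treated level alone, MXD was above N-CE at 3W for Gli2 (8.34 against 8.19) and Hhip (6.78 against 6.61). At 2W it was not above N-CE for Smo (12.16 against 12.18). Channels overlapped for Hhip and Smo. The other members kept the order of their folds, so not every sign holds without the VC channels. The doses differ, 3% for MXD and 10% for N-CE, and with 1 pool a group none of these weekly differences has a test.

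The only replication in the design is over weeks. Limma's moderated test on the 3 weekly log2 folds of a treatment, adjusted over 40820 probes by Benjamini-Hochberg, called 0 probes for MXD, 0 for N-CE and 0 for the difference between them, which is 0% in each. At an unadjusted p under 0.05 it had 3067, 1486 and 2021 probes. Among the 13 member probes, 3, 0 and 0 were under that limit. Those 3 were the brightest probes of Gli3 and Ptch1 and a Smo probe that no pool raised above background. For Shh the mean over weeks by limma was 0.64 (SE 0.24, adjusted p = 0.628) in MXD and −0.70 (SE 0.86, adjusted p = 1) in N-CE. The difference was 1.34 (SE 0.76, adjusted p = 0.75). Weeks are not replicates of a condition, and the N-CE mean of Shh combines a fall at 1W with small rises at 2W and 3W.

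Other genes of the pathway moved less as a group than the 7. Of 56 on the array, 7 were up-regulated and 3 down-regulated in MXD at 2W, which is 12.5% and 5.36%, and their median log2 fold was 0.12. Over all probes the shares were 4.04% and 5.82%, so the share down-regulated was near that of all probes. The 56 are genes, each by its brightest probe, while all probes include dim ones and several of a gene. These shares are therefore not like for like. Of the 56 genes, 5 (8.93%) were down-regulated in N-CE at 1W and none up-regulated, with a median of −0.087. Over all probes, 1.49% were down-regulated and 0.292% up-regulated there. In MXD at 3W, 1 was up-regulated and none was called in the other comparisons. Most genes with a call are described by role.

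Among the genes of ligands, release and reception, Scube1, of the Scube family that helps release hedgehog ligand, rose in MXD at 2W (log2 fold 1.11 ± 0.23) and at 3W (0.69 ± 0.19) and fell in N-CE at 1W (−1.69 ± 0.33). Against this direction, the ligand Dhh, known from Schwann cells, fell in MXD at 2W (−1.05 ± 0.35), and so did the co-receptor Cdon (−1.04 ± 0.33). The co-receptors Gas1 and Boc were not called, with −0.32 and 0.13 in MXD at 2W and 0.14 and −0.034 in N-CE at 1W. Ihh exceeded background in no comparison. This list of 13 genes had 2 up and 2 down in MXD at 2W and 2 down in N-CE at 1W, not all of which are named.

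In signal transduction, 1 of 18 genes on the array was called. Kif7, a kinesin that organizes the cilium tip, rose in MXD at 2W (0.90 ± 0.21), and was −0.80 ± 0.29 without a call in N-CE at 1W. Sufu, the protein that restrains the Gli factors, was 0.50 ± 0.18 and −0.22 ± 0.0026 and was not called. Of the 12 genes of the primary cilium on the array, Rpgrip1l fell in MXD at 2W (−0.59 ± 0.0015) and no other was called.

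Of the 13 target genes on the array, 4 rose in MXD at 2W and 3 fell in N-CE at 1W. Mycn, a driver of proliferation, gave 1.35 ± 0.10 and −2.20 ± 0.026, Foxe1, a follicle transcription factor, 1.09 ± 0.32 and −1.67 ± 0.25, and Sox9, a factor of follicle stem and progenitor cells, 1.02 ± 0.025 and −0.79 ± 0.030. Sfrp1, a Wnt antagonist, rose in MXD at 2W (0.97 ± 0.49) and was −0.69 ± 0.26 without a call in N-CE at 1W. The median of the list was 0.33 in MXD at 2W and −0.31 in N-CE at 1W. In N-CE at 2W and 3W, 12 of the 13 were above 0 without a call, with medians of 0.22 in both. Sox9 also stands in the list of bulge markers used below.

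Markers of hair matrix and precortex, inner root sheath and melanocytes moved in the members' directions in MXD at 2W and in N-CE at 1W. All 10 genes of hair matrix and precortex were up-regulated in MXD at 2W, with a median log2 fold of 1.23, and all 10 down-regulated in N-CE at 1W, with −1.78. Their summed processed signal was 241949 to 296706 in MXD at 2W against 94749 to 120665 in VC, and 8492 to 10971 in N-CE at 1W against 43003 to 49333. Of 6 genes of the inner root sheath, 5 rose in MXD at 2W (median 1.18; sums 675454 to 736764 against 266397 to 460502) and 5 fell in N-CE at 1W (−2.76; 46941 to 59506 against 239099 to 345323). Of 7 melanocyte genes, 6 rose (1.14; 82305 to 94192 against 32619 to 45337) and 4 fell (−0.91; 7973 to 8099 against 19503 to 22005). Melanocyte genes were also up-regulated where no member probe was called. These were 3 in MXD at 1W (median 0.70), 4 in MXD at 3W (0.66) and 1 in N-CE at 3W (0.50). Every marker of the 13 lists on the array, those of epidermis and dermis included, was above background on at least 1 array, as the label of whole skin requires. Their part in the change of the hedgehog genes was not tested.

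Single keratins can be set beside Shh. In MXD at 2W, Krt31, Krt35 and Krt85, keratins of the hair shaft, gave 1.33, 1.19 and 1.06 on the log2 scale beside 1.20 for Shh. In N-CE at 1W they gave −2.37, −2.33 and −2.02 beside −2.70 for Shh, whose treated pool was near background. After normexp and loess, Krt31 was −2.29 and Shh −0.84.

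The other lists had fewer calls in the members' directions, or calls in the opposite one. Of 14 dermal papilla genes, 3 rose in MXD at 2W and 3 fell in N-CE at 1W, with medians of 0.24 and −0.21. Against these directions, 3 of the 14 lay below 0 in MXD at 2W and 4 above 0 in N-CE at 1W. Of 8 bulge genes, 2 rose and 3 fell in MXD at 2W, and 2 fell in N-CE at 1W, with medians of −0.19 and −0.26. All 10 skeletal muscle genes fell in MXD at 2W, with a median of −1.46 and sums of 214016 to 366479 against 542828 to 894483 in VC, and none was called in N-CE at 1W, with −0.14. Of 7 adipocyte genes, 5 fell in MXD at 2W, with a median of −0.79 and sums of 88634 to 111814 against 131860 to 200554, and none was called in N-CE at 1W, with 0.32. The other lists had medians between −0.82 (dermal fibroblast) and 0.020 (interfollicular epidermis) in MXD at 2W, and between 0.0091 (sebaceous gland) and 0.30 (blood and immune cells) in N-CE at 1W. Their part in the result was not tested either.

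**Figure D5:**
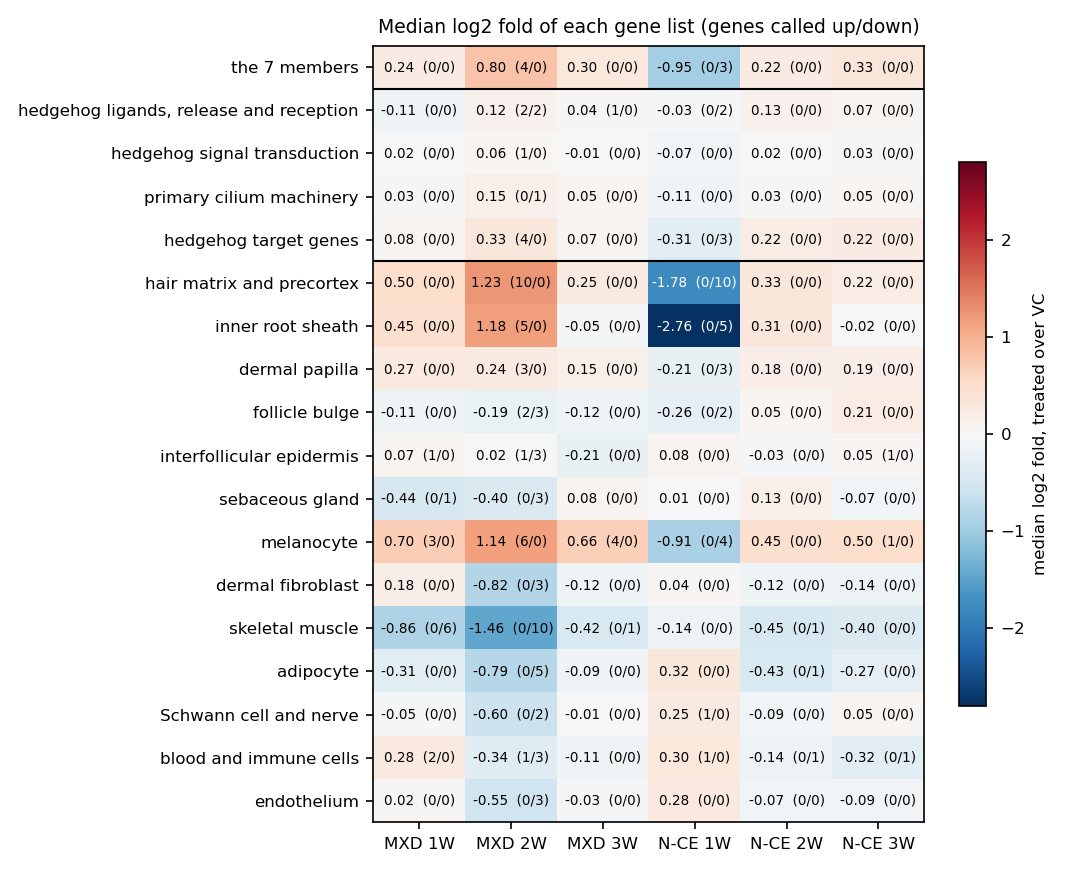
Median log2 fold of treated over VC for the 7 members, 4 lists of other pathway genes and 13 lists of cell type markers in the 6 comparisons, as colour and number, with the genes called up and down in brackets. The row of hair matrix and precortex has 1.23 in MXD at 2W and −1.78 in N-CE at 1W beside 0.80 and −0.95 for the members, while skeletal muscle has −1.46 and −0.14.

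The genes whose 6 log2 folds lay nearest to those of Shh were sought among 15401 brightest probes above background in every comparison in at least 1 group. Nearest were an array transcript without a gene symbol, the homeobox gene Dlx4, Vsig8, the carbamoyl-phosphate synthetase Cps1 and Krt25, a keratin of the inner root sheath, at Euclidean distances of 0.30 to 0.37. Among the members, Gli1 ranked 126 in that order, Hhip 332, Ptch1 336, Gli2 521, Gli3 692 and Smo 1437. After normexp and loess these ranks were 916, 1869, 583, 555, 164 and 958. On the normexp and loess scale the nearest were Ncapd2, Prc1, Cep55, Nek2 and Aurka, genes of mitosis, at 0.11 to 0.17, and none of the 5 was shared. For Gli1 the nearest were Dclk3, Kif18b, Prr11, an array transcript without a symbol and Kcnh1, at 0.39 to 0.49, and again none of the 5 was shared with the other scale. The 6 comparisons share 3 VC pools, so these distances are a description of 6 linked values.

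Promoter windows of 300 bases (250 before and 50 after the start, RefSeq) were at hand for 5 members, not for Shh and Gli1. The Gli binding motif TGGGTGGTC, read on both strands, was in none of the 5, neither exact nor with 1 mismatch. It is exact in 0.253% of all 32851 windows and within 1 mismatch in 6.74%. That these letters are not in these windows says nothing about binding of Gli factors.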

How the data were processed

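RNA of whole back skin, pooled from 6 mice per group, was measured on 12 Agilent two-colour arrays. The authors deposited the Feature Extraction output of each array and a series matrix. The deposited log10 ratio is Cy5 over Cy3 after the authors' background subtraction and LOWESS dye normalization, and the series matrix holds a log10 ratio of the processed signals. The p-value deposited with each spot is the one that the authors' software derived from its error model. The authors also deposited the intensity of each channel, raw and processed. Feature Extraction is version 12.0.3.1 per the file headers and 11.0.1.1 per the submitters' processing notes.

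Without control and outlier spots, the ratios were given the sign of treated against VC, put on the log2 scale, and averaged per array and then per dye swap. Limma 3.58.1 in R 4.3.3 gave the moderated tests (Benjamini-Hochberg over all probes), and pandas 2.3.3 and numpy 2.4.6 under Python 3.11.15 the remaining values. The fold and P thresholds are those of the study. The rule that both arrays pass the P threshold with equal sign was set here. The paper does not state it, so the counts here need not match the paper's. A probe counts as above background in a channel if over 50% of its spots do. The call rule and the test over weeks were run on simulated normal noise with known shifts. That noise had no signal near background and no dye offset, so it does not measure their error on these data. Alternatives covered the P rule, folds, background correction, dim and outlier spots, each array alone, the matrix, the weeks and the slide.

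Members, gene lists and tests were chosen with earlier results of these data known. Genes named were the 7 members, pathway genes with a call or of a fixed set, the 5 nearest to Shh and Gli1, and up to 3 bright genes of a marker list. The lists were 4 of the pathway and 13 of cell types. The values of 1 pathway gene are not reported here. P-values over weeks measure the spread between 3 weeks, not mice. The number of arrays limits the precision.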

Additional observations from a re-analysis of the deposited data

Results flagged for a closer look

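Each of the following differences was singled out because both arrays of 1 comparison lay on the opposite side of 0 from both arrays of the other. None of these differences was tested, since each group is 1 pool and the 2 arrays share their RNA. Values are differences of log2 folds of the brightest probe.

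Between the treatments at 1W, MXD minus N-CE was 3.098 for Shh, 1.26 for Ptch1, 0.76 for Gli3 and 1.44 for Hhip, with MXD above and N-CE below VC. After normexp and loess these differences were 1.09, 0.42, 0.74 and 0.33, and the N-CE pool was near background for Shh, Ptch1 and Hhip. At 3W the order was the opposite, with −0.29 for Smo and −0.32 for Gli2. Both of these rest on folds too small for a call. For Gli2 the VC estimates of that week differed by 0.38 between the arrays of the treatments.

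Between weeks of MXD, Gli2 was slightly below VC at 1W and 3W and above it at 2W, which gives −1.11 for 1W minus 2W and 1.16 for 2W minus 3W. Smo gave 0.44 for 2W minus 3W.

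Between weeks of N-CE, all 7 genes were below VC at 1W and most were above it afterwards. For 1W minus 2W the difference was −2.97 for Shh, −1.17 for Ptch1, −0.51 for Smo, −0.99 for Gli2 and −0.86 for Gli3. For 1W minus 3W it was −3.02 for Shh, −1.48 for Ptch1, −0.55 for Smo, −2.05 for Gli1, −0.90 for Gli2, −0.85 for Gli3 and −1.37 for Hhip. The sizes for Shh, Gli1 and Hhip include a treated pool near background at 1W. For Ptch1 the treated pool of that week was above background on 1 of 2 arrays.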

How the results depend on the processing

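The count of 6 member probes in MXD at 2W was 3 with normexp and loess folds, and within 1.5 times of 6 under the other 9 alternatives. The count of 4 in N-CE at 1W was 8 with folds alone, with P on at least 1 array and on array 2 alone, and 1 (Gli2) with probes above background in both pools. The counts of 0 became 1 in MXD at 1W with folds alone, with P on at least 1 array and on array 1, and 2 on array 2. In N-CE the count became 1 at 2W on array 1, and at 3W it became 2 with folds alone, 1 with P on at least 1 array and 3 on array 2. MXD at 3W kept 0. Over all probes, the counts up and down with normexp and loess were 163 and 278 instead of 282 and 315 in MXD at 1W, 1030 and 2220 instead of 1661 and 2397 at 2W, and 36 and 61 instead of 59 and 66 at 3W. In N-CE they were 46 and 524 instead of 120 and 612 at 1W, 8 and 18 instead of 28 and 21 at 2W, and 29 and 48 instead of 62 and 57 at 3W. Folds alone gave 4479 and 7389 in MXD at 2W and 1701 and 3866 in N-CE at 1W, P on at least 1 array 2878 and 4542, and 304 and 1224, array 1 alone 3623 and 4144, and 522 and 1009, and array 2 alone 3059 and 3809, and 531 and 1131. The cause was not tested. Limma called 0 member probes in all 3 fits under all 6 alternatives, and unadjusted p under 0.05 then held for 0 to 5 of the member probes.

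The N-CE means over weeks, none of them called, turned without 1W to 0.30 for Shh, 0.37 for Ptch1, 0.31 for Gli1, 0.18 for Gli2, 0.17 for Smo and 0.14 for Hhip. Week 1 was the only N-CE week below 0 for these genes except Hhip, which was also below 0 in the second. With normexp and loess they were 0.024 for Ptch1 and 0.0047 for Gli1. For Gli3 the mean was −0.093 without 2W and −0.089 without 3W. No called log2 fold of a member changed sign under 6 alternatives, and normexp with loess moved 18 of 42 folds by more than the SD of the dye swap. No pairing of animals was possible because every sample has replicate number 1 and each group is 1 pool. The treatments were paired by week only, in the limma test of their differences. Signal near background limits Gli1, Hhip and, in N-CE at 1W, Shh and Ptch1.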
